A study of Penicillium oxalicum with 6 samples.

Results

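The 2 glucoamylase genes examined here, *PoxGA15A* (POX_a00573) and *POX_b02418*, were taken by their gene identifiers from the 9822 genes listed in each of 6 RNA-seq libraries of the filamentous fungus *Penicillium oxalicum*. They are the genes that the study describes as coding for glucoamylases. The parental strain Δ*ku70* and the deletion strain Δ*rsrC*, made in its background, were represented by 3 libraries each. Δ*ku70* lacks a gene of non-homologous end joining, which favours targeted integration of introduced DNA, and carries a hygromycin resistance gene. Δ*rsrC* shares this deletion and resistance gene, and in addition lacks *rsrC* and carries a G418 resistance gene. The labels name the parent POXKu70 with a wild-type genotype, and the deletion strain by the number POX00418. That this number stands for *rsrC* (POX_a01508) is an inference from the study's description of the comparison and from the level of *rsrC* in these libraries.

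In both strains spores were pregrown in glucose medium for 24 h, and RNA was taken 24 h after the mycelium had been moved to another medium. The labels give the carbon source of that medium both as Avicel and as raw starch, whereas the study describes commercial corn starch, and the values reported here do not settle which it was. No library came from a strain with *rsrC* put back. The study calls the libraries of a strain biological replicates. Whether that means separate cultures or separate transformants is not given in the sources used here, and the p-values measure the spread between these libraries.

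Glucoamylases are secreted enzymes that release glucose one unit at a time from the non-reducing ends of starch chains, and they act together with α-amylases, which cut starch chains internally, and α-glucosidases, which split the short products. The study's annotation places both gene products in the glycoside hydrolase family GH15 with a CBM20 starch-binding module. PoxGA15A is known as a raw starch-degrading glucoamylase, an enzyme that attacks starch granules that have not been cooked. RsrC is a protein with a C2H2 zinc finger domain, and the comparison asks how transcript levels of the glucoamylase genes differ when its gene is absent.

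Transcript levels are given as FPKM, which divides the fragments of a gene by its length and by the total mapped in that library. In Δ*ku70* replicates 1, 2 and 3 the deleted gene *rsrC* had 27.1, 30.3 and 39.0 FPKM, and all 3 Δ*rsrC* libraries list it at 0. Absolute depth is unknown. Relative depth was estimated from the most frequent ratio between libraries of genes at 0.1 to 2 FPKM. It ranged from 77.8% to 105% of that of Δ*ku70* replicate 1, and rested on 30 to 63 genes per library. The sum of FPKM over all genes was 1274810 to 1317080 in Δ*ku70* and 1493560 to 1536320 in Δ*rsrC*, while the median gene stood at 31.4 to 32.1 and 26.6 to 27.6 FPKM. Of 3 conidiation markers, 2 fell at an adjusted p-value under 0.05. Of all tested genes 25.6% did so, and 3 markers are too few to read against that share. The conidiation regulator *brlA* lay between 0.42 and 1.71 FPKM in the 6 libraries (adjusted p = 0.868). The spore-wall hydrophobin genes *rodB*, from a mean of 79.1 to 33.5 FPKM (adjusted p = 0.0425), and *rodA*-like, from 118 to 35.2 FPKM (adjusted p = 0.00421), fell in Δ*rsrC*. The *rodB* call was lost when Δ*rsrC* replicate 2 or any of the 3 Δ*ku70* libraries was left out (adjusted p = 0.0686 to 0.105), and under 5 other alternatives (adjusted p = 0.0523 to 0.0608). Their part in the glucoamylase values was not tested.

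Both glucoamylase genes fell in Δ*rsrC* at an adjusted p-value under 0.05, as did 25.6% of the 8605 genes tested (those averaging 1 FPKM or more). In Δ*ku70* replicates 1, 2 and 3 *PoxGA15A* had 773, 1151 and 1473 FPKM, against 495, 561 and 503.0 FPKM in the same-numbered Δ*rsrC* replicates. Every Δ*rsrC* library lay below every Δ*ku70* library, as for 35.2% of tested genes, by a factor of 1.38 between the nearest pair and 2.98 between the farthest. The mean was 1132 ± 351 FPKM (SD, n = 3) with *rsrC* present and 520 ± 36.0 FPKM (SD, n = 3) without it, and so fell by 54.1%. On the log2(FPKM + 1) scale the difference was -1.08 (SE 0.23, 95% interval -1.62 to -0.53, limma adjusted p = 0.0122).

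For *POX_b02418* the Δ*ku70* libraries gave 369, 535 and 872 FPKM and the Δ*rsrC* libraries 187, 208 and 193 FPKM. Its strains did not overlap either, with a factor of 1.77 between the nearest libraries and 4.66 between the farthest. Its mean of 592 ± 256 FPKM (SD, n = 3) fell by 66.8%, to 196 ± 10.9 FPKM (SD, n = 3). The log2 difference was -1.50 (SE 0.29, 95% interval -2.18 to -0.82, limma adjusted p = 0.00872). These are levels of RNA in a whole culture, so fewer cells that transcribe it and less RNA per cell cannot be told apart. How fragments were divided between these related genes where their sequences are alike was not tested.

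A fall past this threshold was thus common in these libraries, where 39.3% of tested genes passed it in either direction and 13.8% rose. Falls of this size were less common. At least as large a log2 fall as that of *PoxGA15A* was seen in 476 tested genes (5.53%), and as that of *POX_b02418* in 169 (1.96%).

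**Figure D1:**
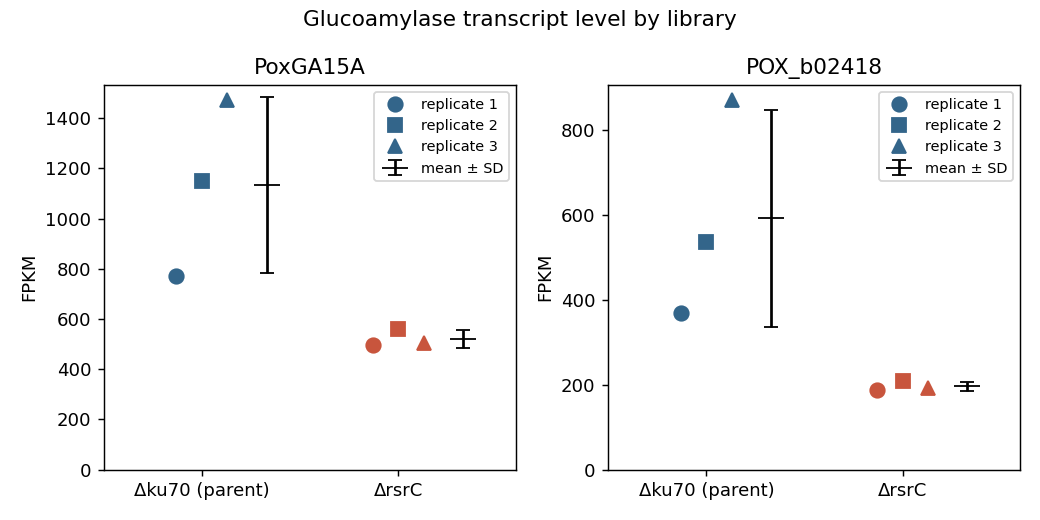
FPKM (y axes, linear from 0) of *PoxGA15A* (left) and *POX_b02418* (right) in the 3 Δ*ku70* and 3 Δ*rsrC* libraries, 1 symbol per replicate number, with the mean ± SD of each strain in black. For both genes the Δ*ku70* libraries are spread out with replicate 1 lowest and replicate 3 highest, and the Δ*rsrC* libraries lie close together below all of them, at 495 to 561 FPKM and 187 to 208 FPKM.

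The falls were also set beside those of genes that were at least as abundant. In Δ*ku70*, 169 genes had a mean at least as high as *PoxGA15A*, with a median log2 difference of 0.11. Of these, 23 (13.6%) fell, 36 rose and 11 (6.51%) had at least as large a log2 fall. For *POX_b02418* there were 361 such genes, with a median of 0.10. Of these, 46 (12.7%) fell, 80 rose and 8 (2.22%) had at least as large a fall. Among all tested genes 25.6% fell and 13.8% rose, so falls past the threshold were a smaller share among genes this abundant. The shares with at least as large a fall were close to the 5.53% and 1.96% over all tested genes. Over all tested genes the median log2 difference was -0.13. In absolute terms *PoxGA15A* lost 612.5 FPKM, the 29th largest loss of any gene, and *POX_b02418* lost 395.6 FPKM, the 53rd largest.

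The ranks among all 9822 genes moved accordingly. *PoxGA15A* was the 256th, 178th and 128th highest gene in Δ*ku70* replicates 1, 2 and 3 and the 490th, 428th and 472nd in the Δ*rsrC* replicates. It therefore stayed among the 490 highest genes of every library, with 97.4% to 98.7% of genes below it in Δ*ku70* and at most 95.6% in Δ*rsrC*. *POX_b02418* was the 580th, 412th and 239th highest in Δ*ku70* and the 1218th, 1086th and 1114th in Δ*rsrC*, with 94.1% to 97.6% and 87.6% to 88.9% of genes below it. In every library *PoxGA15A* ranked above *POX_b02418*, and for each gene no rank of one strain fell within those of the other. The ranks were taken from the FPKM values above, where 35.2% of tested genes had every Δ*rsrC* library below every Δ*ku70* library. That share refers to FPKM, and the share of genes whose ranks did not overlap was not counted. The rank does not depend on how the libraries are scaled against each other.

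**Figure D2:**
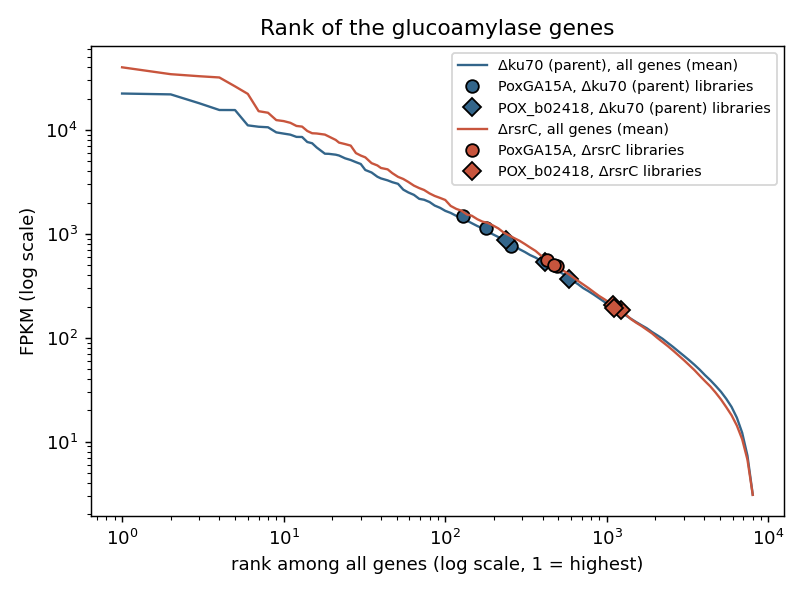
FPKM (y axis, log scale) against rank among all genes (x axis, log scale, 1 is the highest gene). Lines show the mean FPKM of each strain at each rank, and symbols show *PoxGA15A* (circles) and *POX_b02418* (diamonds) in single libraries. The Δ*ku70* symbols of *PoxGA15A* lie at ranks 128 to 256 and those of Δ*rsrC* at 428 to 490, and *POX_b02418* moves from 239 to 580 in Δ*ku70* to 1086 to 1218 in Δ*rsrC*.

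The genes were also compared with each other inside each library, where the scaling of the library cancels. *POX_b02418* stood at 0.477, 0.465 and 0.592 times the FPKM of *PoxGA15A* in Δ*ku70* and at 0.378, 0.371 and 0.384 times in Δ*rsrC*. The ratio was thus lower in all 3 Δ*rsrC* libraries than in any Δ*ku70* library, and *POX_b02418* lost the larger fraction of its transcript level. The mean log2 ratio of the Δ*ku70* libraries was -0.98 ± 0.19 (SD, n = 3) and that of the Δ*rsrC* libraries -1.40 ± 0.025 (SD, n = 3), which differ by -0.43. A two-sided exact permutation test gave p = 0.1, its lowest possible value for 3 libraries against 3, so the design could not place this difference under 0.05. Without Δ*ku70* replicate 3, which had the highest ratio, the difference was -0.32.

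**Figure D3:**
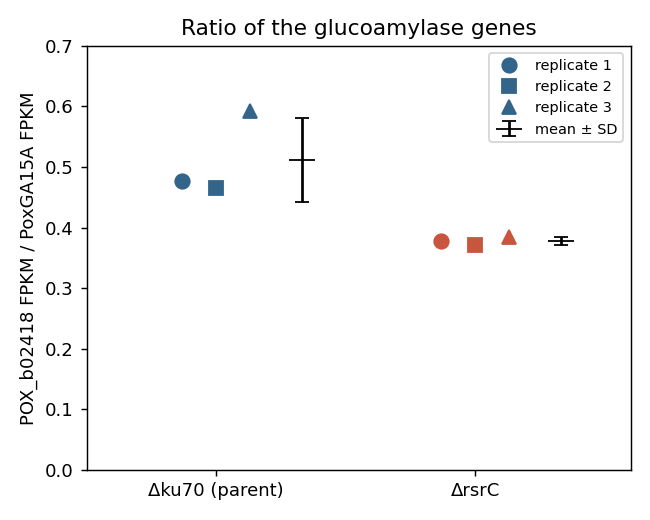
Ratio of *POX_b02418* FPKM to *PoxGA15A* FPKM (y axis, linear from 0) in each library by strain, with the mean ± SD of each strain in black. The Δ*ku70* libraries lie at 0.465 to 0.592 and the Δ*rsrC* libraries at 0.371 to 0.384.

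Taken as a pair, the genes summed to 1141, 1686 and 2344 FPKM with *rsrC* and to 682, 769 and 696 FPKM without it. Their share of all FPKM of the library was 0.0895%, 0.131% and 0.178% in Δ*ku70* and 0.0444%, 0.0509% and 0.0466% in Δ*rsrC*. The pair therefore made up a smaller part of the measured transcript pool per length in each Δ*rsrC* library than in any Δ*ku70* library. The sum of all FPKM was itself higher in each Δ*rsrC* library, which lowers the share of a gene at unchanged FPKM. How many genes had shares that did not overlap between the strains was not counted. Within the pair, *PoxGA15A* held 67.7%, 68.3% and 62.8% of the summed FPKM in Δ*ku70* and 72.6%, 72.9% and 72.2% in Δ*rsrC*.

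The parental libraries differed widely from each other in both genes and in the same order. Replicate 3 stood 1.91-fold above replicate 1 for *PoxGA15A* and 2.36-fold above it for *POX_b02418*, with replicate 2 between them at 1.49-fold and 1.45-fold. These factors moved little with the scaling of the libraries, and between replicates 3 and 1 they were 1.86 and 2.31 after median-ratio scaling and 1.85 and 2.29 after rescaling to equal sums. A factor at least as large between these libraries was seen in 3.81% of tested genes for *PoxGA15A* and in 2.13% for *POX_b02418*. In the opposite direction, replicate 1 over replicate 3, the shares at the same factors were 2.98% and 1.93%.

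The order itself was more frequent than its reverse in these libraries, and the other orders were not counted. Of the 8605 tested genes, 1958 (22.8%) had Δ*ku70* replicate 1 lowest and replicate 3 highest, and 997 (11.6%) had the reverse. The order was also that of *rsrC*, *rsrA* and *rsrB*, 3 of the 6 regulators listed when *rsrC* is included, and of 2 of the 6 other amylolytic genes, *amy13A* and *POX_f08248*. *POX_e06687* had the reverse order, at 23.2, 19.9 and 13.4 FPKM. What the replicate numbers stand for is not given in the labels, and the part of these differences in the glucoamylase result was not tested.

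The Δ*rsrC* libraries lay much closer together. The highest stood 1.13-fold above the lowest for *PoxGA15A* and 1.11-fold for *POX_b02418*, and in both genes replicate 2 was highest and replicate 1 lowest, an order found in 19.2% of tested genes. On the log2 scale the SD of *PoxGA15A* was 0.47 in Δ*ku70* and 0.098 in Δ*rsrC*, and that of *POX_b02418* 0.62 and 0.079. The median SD over all tested genes was 0.18 in Δ*ku70* and 0.16 in Δ*rsrC*. An SD at least as large as theirs in Δ*ku70* was found in 12.6% and 7.23% of tested genes, and one at most as small in Δ*rsrC* in 25.5% and 17.7%. The size of the fall therefore depended on which Δ*ku70* library was used as the reference. Without Δ*ku70* replicate 1 the log2 difference was -1.33 for *PoxGA15A* and -1.80 for *POX_b02418*, and without Δ*ku70* replicate 3 it was -0.86 and -1.18. With any single library left out both genes kept an adjusted p-value under 0.05, the highest being 0.0462 for *PoxGA15A* and 0.0354 for *POX_b02418*.

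The other amylolytic genes named by the study moved in both directions. Of 6, only the α-glucosidase gene *POX_e06687* fell (log2 difference -1.16, adjusted p = 0.00804) and only the α-glucosidase gene *POX_g08885* rose (log2 difference 1.24, adjusted p = 0.00140), while 4 did not pass the test. Over all tested genes 25.6% fell and 13.8% rose, so 2 calls among 6 genes are near the background. The median log2 difference of the 6 was 0.20, and 3 of the 4 changed sign when the libraries were rescaled to equal sums (TPM). The α-amylase gene *amy13A* had 134, 360 and 517 FPKM in the parent and 569, 522 and 397 FPKM in the deletion strain (log2 difference 0.74, adjusted p = 0.237). Leaving out Δ*ku70* replicate 1 brought that difference to 0.18, and leaving out replicate 3 of the same strain raised it to 1.15, neither past the test. The study drew this list in part from these libraries. By its own processing it counts *POX_d05520*, *POX_f08248* and *POX_c03853* as differing in Δ*rsrC*, at a p-value under 0.05. Here their limma p-values before adjustment were 0.191 to 0.213.

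By mean FPKM *PoxGA15A* stayed at place 2 of the 8 amylolytic genes, and *POX_b02418* moved from place 3 in Δ*ku70* to place 5 in Δ*rsrC*. In Δ*ku70* the mean levels per length ran from the α-glucosidase gene *POX_f08248* at 3032 FPKM to *PoxGA15A*, *POX_b02418* and *amy13A* at 337 FPKM, and the libraries of *PoxGA15A* overlapped those of *POX_b02418*, as those of *POX_b02418* overlapped those of *amy13A*. In Δ*rsrC*, *PoxGA15A* at 520 FPKM overlapped *amy13A* at 496 FPKM, and *POX_b02418* at 196 FPKM lay below the branching enzyme gene *POX_d05520* at 232 FPKM with no overlap. The glucoamylase pair held 26.1%, 30.4% and 35.1% of the summed FPKM of the 8 amylolytic genes in Δ*ku70* and 13.3%, 14.9% and 12.6% in Δ*rsrC*. The summed level of the 8 genes averaged 5538 ± 1154 FPKM (SD, n = 3) for the parent and 5281 ± 229 FPKM (SD, n = 3) for the deletion strain, and the libraries overlapped. *amy13A* was at 0.174, 0.313 and 0.351 times the level of *PoxGA15A* in the Δ*ku70* libraries and at 1.15, 0.931 and 0.789 times in the Δ*rsrC* libraries.

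Known regulators of amylase genes were examined beside the pair. Of 5, *rsrA*, which the study describes as an activator of *PoxGA15A*, fell (log2 difference -0.49, adjusted p = 0.0329), and so did *creA*, the carbon catabolite repressor gene (log2 difference -0.61, adjusted p = 0.0126). With 25.6% of all tested genes lower, 2 of 5 is a count too small to read against the background. The activator gene *amyR* had a log2 difference of -0.32 (adjusted p = 0.0587), *cxrC*, a negative regulator, -0.29 (adjusted p = 0.0816) and *rsrB*, the Zn2Cys6 gene the study places after *rsrA*, 0.21 (adjusted p = 0.278). Their log2 differences, with a median of -0.32, were smaller in size than those of both glucoamylase genes, and their part in the glucoamylase result was not tested. The call for *rsrA* was lost when any of 4 single libraries was left out (Δ*ku70* replicate 2 or 3, Δ*rsrC* replicate 2 or 3), with adjusted p-values of 0.0658 to 0.103. It was also lost after median-ratio scaling (adjusted p = 0.0908), after quantile normalization (adjusted p = 0.189) and with the replicate number as a block (adjusted p = 0.0761), whereas *creA* passed under every alternative run. After TPM rescaling *amyR* (adjusted p = 0.00741) and *cxrC* (adjusted p = 0.0106) passed too. With only genes averaging 10 FPKM or more tested, *amyR* also passed (adjusted p = 0.0494).

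**Figure D4:**
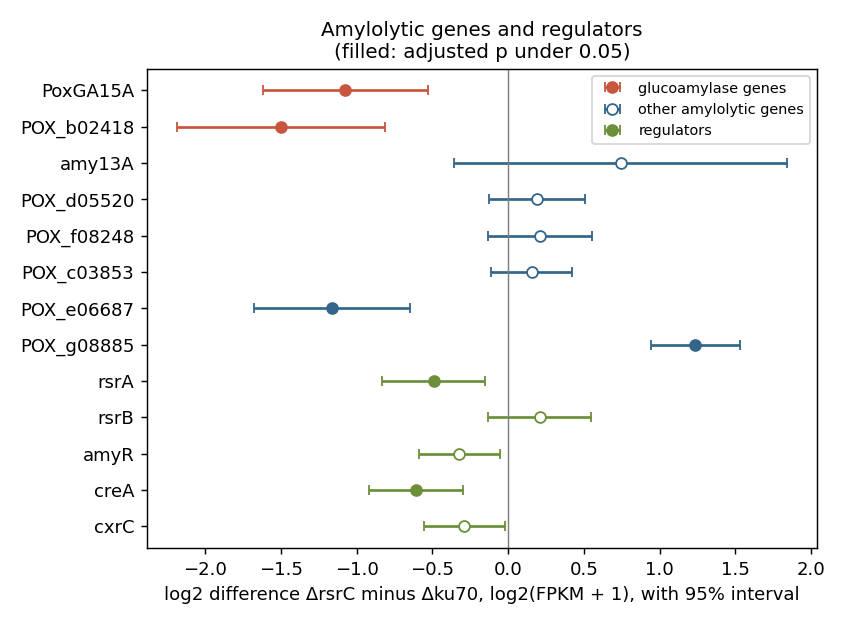
Log2 difference Δ*rsrC* minus Δ*ku70* (x axis, log2(FPKM + 1) scale) with its 95% interval, not adjusted for the number of genes, for the glucoamylase genes (red), the 6 other amylolytic genes (blue) and 5 regulators (green). Filled points have an adjusted p-value under 0.05. The glucoamylase genes lie at -1.08 and -1.50, and of the other genes shown *POX_e06687* at -1.16 lies within their range.

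The genes beside them were examined in the same fit. The RefSeq gene table places *PoxGA15A* and *POX_b02418* on different chromosomes. Of the 20 genes within 5 places on either side of each, 2 fell, 2 rose, 12 did not pass the test and 4 were too low to be tested. The 4 calls among 16 tested neighbours compare with 39.3% of all tested genes, and 3 to 6 neighbours were called under the alternatives. Beside *PoxGA15A*, *POX_a00572*, the adjacent gene, annotated by the study as a carbohydrate esterase of family CE1, rose from 42.5 to 63.1 FPKM (log2 difference 0.56, adjusted p = 0.0147), a call lost without Δ*rsrC* replicate 1 or 2 (adjusted p = 0.0528 and 0.0544), after TPM rescaling (adjusted p = 0.0530) and with the replicate number as a block (adjusted p = 0.0542). *POX_a00571*, the next gene on that side, had a log2 difference of 0.88 (adjusted p = 0.0517) and passed under 4 alternatives (adjusted p = 0.0285 to 0.0458). *POX_a00575* fell from 27.4 to 14.2 FPKM (log2 difference -0.90, adjusted p = 0.00485). Beside *POX_b02418*, the adjacent gene *POX_b02417* rose, from 250, 243 and 251 FPKM in Δ*ku70* to 721, 459 and 440 FPKM in Δ*rsrC* (log2 difference 1.08, adjusted p = 0.00714). It therefore moved in the opposite direction to *POX_b02418*. *POX_b02415* fell (log2 difference -0.57, adjusted p = 0.0138), a call lost after quantile normalization (adjusted p = 0.0649). *POX_b02413* had 65.3, 535 and 598 FPKM in the parent and 42.1, 80.4 and 112 FPKM in the deletion strain, and passed the test only when Δ*ku70* replicate 1 was left out (log2 difference -2.95, adjusted p = 0.00811) or with the replicate number as a block. The median log2 difference of the tested neighbours was 0.24 around *PoxGA15A* and -0.03 around *POX_b02418*.

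**Figure D5:**
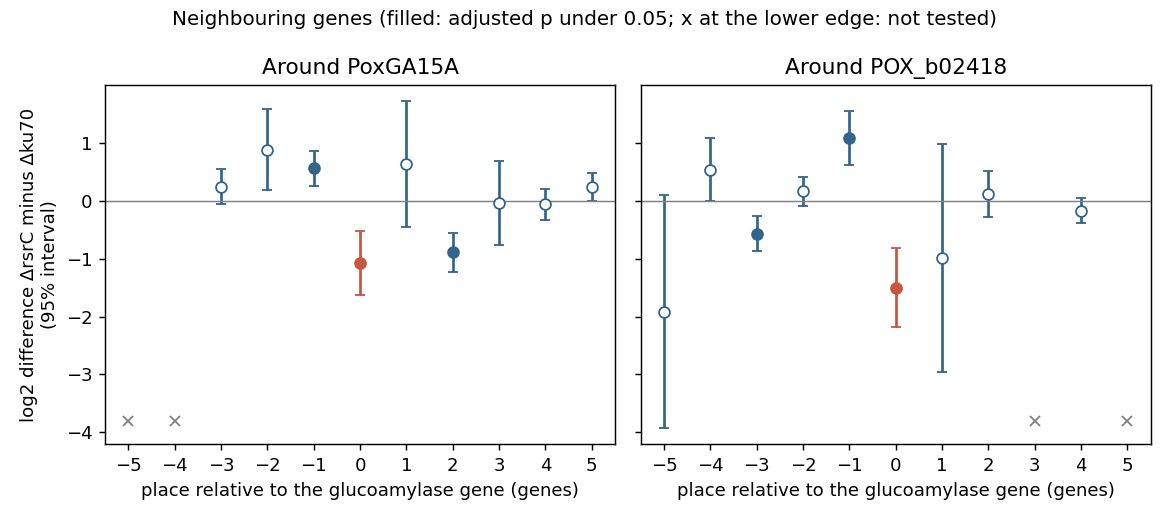
Log2 difference Δ*rsrC* minus Δ*ku70* (y axis) with its 95% interval for the genes within 5 places of *PoxGA15A* (left) and *POX_b02418* (right), by place on the chromosome (x axis, 0 is the glucoamylase gene, in red). Filled points have an adjusted p-value under 0.05 and crosses at the lower edge mark genes that were not tested. Genes directly beside the glucoamylase genes at place -1 lie above 0, at 0.56 and 1.08. Those at place 1 lie at 0.63 beside *PoxGA15A* and -0.99 beside *POX_b02418*, neither past the test.

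The genes with profiles most like each glucoamylase gene were sought among the 7099 other genes that averaged 10 FPKM or more, by the root mean square difference of log2(FPKM + 1) over the 6 libraries after each profile was centred on its own mean. For *PoxGA15A* they were *POX_d05368* and *POX_f07859* (both 0.12), *POX_a01721* (0.12), *POX_f07483* and *POX_a00317* (both 0.13). *POX_a01721* is annotated by the study as a Zn2Cys6 transcription factor with 9.73, 16.5 and 18.2 FPKM in the parent and 5.50, 8.32 and 5.89 FPKM in the deletion strain. For *POX_b02418* they were *POX_g08841* (0.15), *POX_d05172* and *POX_c04600* (both 0.16), *POX_a01895* (0.17) and *POX_d05171* (0.18), with no gene shared between the lists. *POX_a01895* is annotated as an enzyme of auxiliary activity families AA3 and AA8, and *POX_d05171* and *POX_d05172* have consecutive numbers.

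The glucoamylase genes were not each other's nearest. Their profiles differed by a root mean square of 0.24, which made *POX_b02418* the 118th nearest gene to *PoxGA15A* and *PoxGA15A* the 17th nearest to *POX_b02418*. The median distance to all compared genes was 0.57 and 0.79. Among the regulators *creA* was the 646th and 820th nearest and *rsrA* the 864th and 1006th, and *amy13A* was the 6415th and 6357th. These distances are descriptions over 6 libraries from 2 strains.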

How the data were processed

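Polyadenylated RNA of 6 libraries (3 Δ*ku70*, 3 Δ*rsrC*) was sequenced. Per the study, BGISEQ reads were aligned by BWA and Bowtie2 against the strain HP7-1 genome, and RSEM quantified them. The submitters' processing notes name bcl2fastq and HISAT2 instead. The authors deposited FPKM values for 9822 genes in 1 table per library, with no counts and no pooling. FPKM divides by all mapped fragments, so a few genes that take more fragments lower all others.

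On the log2(FPKM + 1) scale the 8605 genes averaging 1 FPKM or more were tested with limma 3.58.1 in R 4.3.3 (intensity trend, no covariate, two-sided). P-values were adjusted by the Benjamini-Hochberg method over all tested genes, and every adjusted p-value in the text is from limma. The ratio was tested between strains by exact permutation of the libraries, two-sided. The same exact permutation test had been planned for the share of the pair and gave p = 0.1, the lowest possible for 3 libraries against 3. No test was planned for the summed level of the pair, which is given without one. Groups were taken from titles and genotype labels. The glucoamylase genes and gene lists were chosen with earlier results of these data known.

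Named genes were the pair, 6 other amylolytic genes, *rsrC* and 5 regulators, 3 conidiation markers, the 5 gene numbers on each side of each glucoamylase gene (named where they passed the test or a sentence turned on them) and the 5 profiles most like each. The RefSeq gene table of assembly ASM172317v3 matched 9718 identifiers and was used for gene order only, since the deposited tables name no build. Gene sequences were not used here. Alternatives were other pseudocounts (0.1 and 10), filters, scalings, no intensity trend, the replicate number as a block and each library left out. The fit was tested on simulated data.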

Additional observations from a re-analysis of the deposited data

How the results depend on the processing

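Both glucoamylase genes stayed lower and past the threshold of limma's test under all 15 alternatives. The log2 difference of *PoxGA15A* ranged from -1.33 to -0.86 (adjusted p = 0.00393 to 0.0462) and that of *POX_b02418* from -1.80 to -1.18 (adjusted p = 0.00336 to 0.0354), and both extremes came from leaving out 1 Δ*ku70* library. The difference of the log2 ratio ranged from -0.49 to -0.32 over 9 alternatives and that of the combined share of all FPKM from -0.107 to -0.0631 percentage points.

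Same-numbered libraries did not deviate together (correlations of 0.0046, -0.13 and -0.24 for replicates 1, 2 and 3), and no library correlated best with its own number. With the replicate number as a block the adjusted p-value was 0.0275 for *PoxGA15A* and 0.0218 for *POX_b02418*, and 2213 genes differed in place of 3386, 1428 lower and 785 higher. The block left 1 regulator called, *creA*, in place of 2, and ended the calls of *rodB* and *POX_a00572*, while *POX_a00571* and *POX_b02413* passed. The other amylolytic genes kept their count of 2.

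With 1 library left out, 2126 to 3476 genes differed, 1364 to 2205 of them lower and 762 to 1271 higher, and the lowest number was reached without Δ*rsrC* replicate 1. The regulators then numbered 1 to 2. Scaling moved the split more. Genes with higher levels made up 35.0% of the calls from the deposited values. TPM rescaling, which sets equal sums, gave 16.9% (3651 lower and 744 higher), median-ratio scaling 52.1% and quantile normalization 48.1%, and the median log2 difference of all genes was -0.13, -0.34, -0.003 and -0.04. Regulators called were 4 after TPM rescaling (*rsrA*, *creA*, *amyR* and *cxrC*) and 1, *creA*, after median-ratio scaling or quantile normalization. The filter at 10 FPKM gave 3. After TPM rescaling the log2 differences of *POX_d05520* (-0.039), *POX_f08248* (-0.018), *POX_c03853* (-0.071) and *rsrB* (-0.016) changed sign, as did *POX_f08248* after quantile normalization (-0.060) and *brlA* (-0.19 to 0.15 with 1 library left out, positive without Δ*rsrC* replicate 3), none of them past the test. Among 470 alternative values of single named genes and profile lists, 420 were counted as unchanged, 32 no longer passed and 9 newly passed. Unchanged means the same direction and side of the threshold for a gene, and at least 4 of the 5 genes shared for a profile list. The causes were not tested.

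In alternatives chosen after seeing the data, the reported 5 profiles most like *PoxGA15A* shared 1 gene with the list after quantile normalization and 3 with a pseudocount of 0.1, and those most like *POX_b02418* shared 2 after quantile normalization. Depth could not be turned into counts, so no detection limit was set.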
